A study of Saccharomyces cerevisiae with 16 samples.

Results

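The hexose transporter genes of *Saccharomyces cerevisiae* were followed across 8 conditions in which the dose of *MSS11* or *FLO8* was changed. The members were 9 *HXT* genes of the family, namely *HXT1*, *HXT2*, *HXT3*, *HXT4*, *HXT5*, *HXT7*, *HXT8*, *HXT10* and *HXT15*, out of 5449 genes with a tested probe set. They were chosen with earlier results of these data known, and their probe sets were found through the gene annotation. The 6 other transporters of the family with a probe set are described further below. Transcripts were measured on 16 Affymetrix Yeast Genome 2.0 arrays, 2 biological replicates per condition. Values are log2 intensities, so a difference of 1 is a doubling of signal.

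In the S288c background (BY4742, labelled *MATα his3Δ1 leu2Δ0 lys2Δ0* with a *ura3* deletion), cells carried *MSS11* on the multicopy plasmid YEpLac195 (2μ-*MSS11*) or the empty plasmid (wild type). The study states that S288c carries a nonsense mutation in *FLO8*. In the Σ1278b background (labelled *MATα*, with *ura3*, *trp1*, *leu2* and *his3* mutations), a first set of arrays held 2μ-*MSS11*, the *mss11* deletion and the wild type. A second Σ1278b set held arrays titled *FLO8* overexpressed, *flo8* deleted and wild type b. All cultures were grown in 5 ml of synthetic medium with 2% glucose at 30 °C, to early stationary phase according to the labels. A multicopy plasmid is present at a variable number per cell, so the dose of *MSS11* in 2μ-*MSS11* cells is an average over the culture. In whole cultures, fewer cells expressing a gene and less RNA per cell cannot be told apart.

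Yeast takes up glucose and other hexoses through a family of membrane carriers. The carriers differ in affinity: Hxt1 and Hxt3 are low-affinity carriers used when glucose is plentiful, Hxt2, Hxt4 and Hxt7 are carriers of higher affinity, and Hxt5 is a carrier of slowly growing and starved cells. Glucose acts through the membrane sensors Snf3 and Rgt2, which lead to loss of Mth1 and Std1 and so relieve the repressor Rgt1 from *HXT* promoters, while Mig1 and its relatives repress several high-affinity carriers when glucose is high. Mss11 and Flo8 are transcription factors best known for the control of *FLO11* and of invasive growth, so the comparisons ask which carriers respond to their dose.

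*MSS11* itself had log2 intensities of 13.27 and 12.37 in S288c 2μ-*MSS11*, against 8.87 and 8.87 in S288c wild type. It had 13.50 and 13.58 in Σ1278b 2μ-*MSS11*, 3.01 and 3.03 in Σ1278b *mss11*, and 7.50 and 8.34 in Σ1278b wild type. The labels of *MSS11* dose were thus borne out on these arrays. This signal does not check the labels of strain or mating type, and *MATa* markers were bright in S288c wild type, labelled *MATα* (below). A log2 intensity of 3.03, the signal of the deleted gene, is used below as the background level (chosen after the data were examined). *FLO8* had 15.71 and 12.90 on the arrays titled *FLO8* overexpressed, 11.06 and 11.16 on those titled *flo8* deleted and 11.59 and 11.63 in wild type b. The signal on the arrays titled *flo8* deleted was thus far above background, and their plasmid label names a *FLO8* plasmid while that of the arrays titled *FLO8* overexpressed names the empty one, so every direction in that set rests on the titles. The 3 sets of arrays (S288c, first and second Σ1278b set) had different lowest and median signals, and the S288c 2μ-*MSS11* replicates lay far apart, with 29.3% of probe sets more than 1 log2 unit apart, against 0.0728% to 3.22% in the other conditions.

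The 9 members fell into 3 groups by signal. *HXT1*, *HXT2*, *HXT3*, *HXT4* and *HXT7* were above background on all 16 arrays. *HXT5* was above it on 11 arrays and *HXT15* on 2. *HXT8* and *HXT10* were at or below it on all 16 arrays, between 1.93 and 2.41 and between 1.89 and 2.28, and no change can be read from them. The probe sets of *HXT7* and *HXT15* are shared with similar transcripts, so their signal cannot be assigned to 1 gene: *HXT6*, the near-identical neighbour of *HXT7*, has no probe set of its own here.

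**Figure D1:**
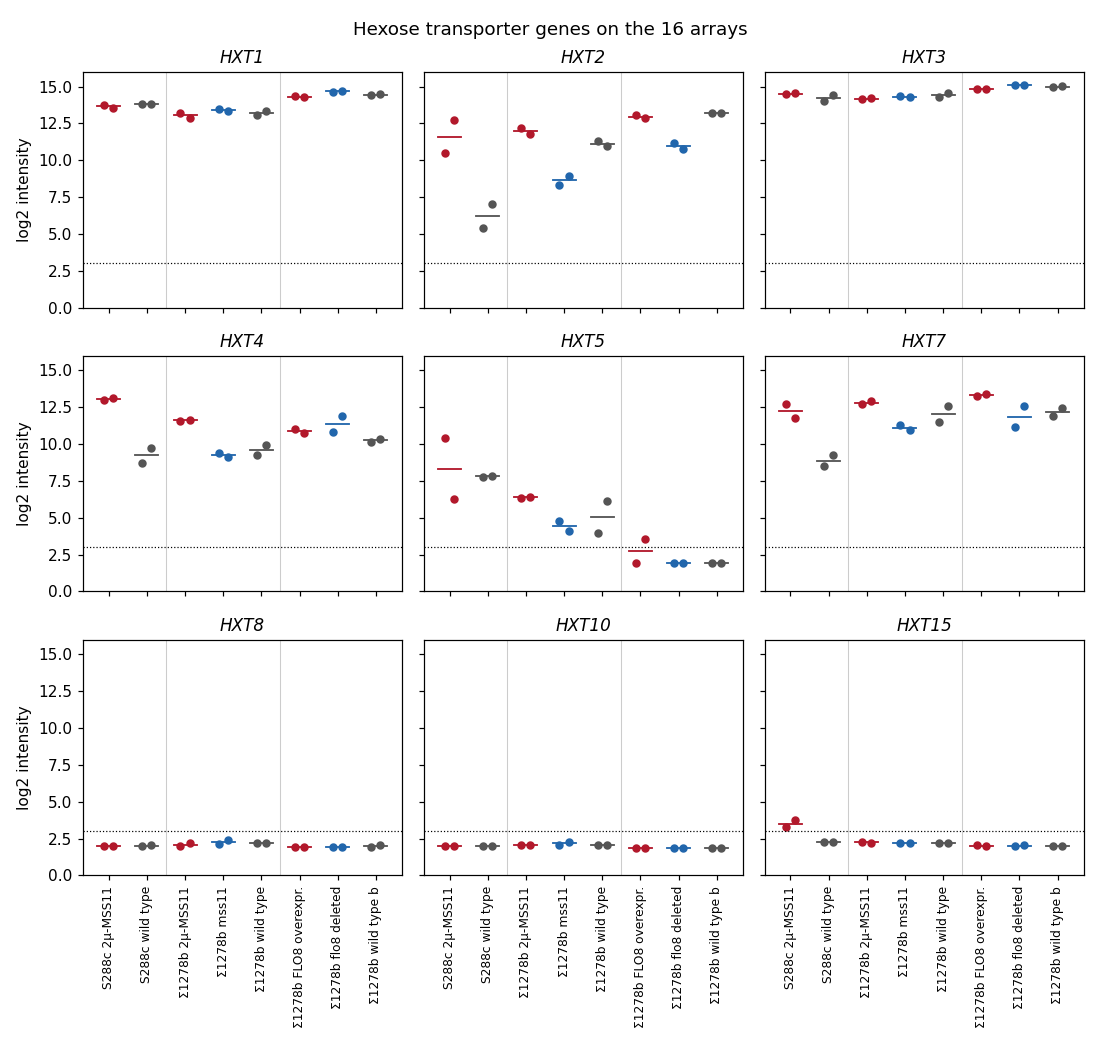
Log2 intensity of each of the 9 hexose transporter genes on the 16 arrays, with 2 replicates per condition as points and their mean as a bar. Grey lines separate the 3 sets of arrays and the dotted line marks the background level of 3.03, on or below which *HXT8* and *HXT10* lie on every array.

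With 2μ-*MSS11* in S288c, 3 higher-affinity carriers rose strongly while the differences of both low-affinity carriers were small and did not pass. *HXT2*, *HXT4*, *HXT7* and *HXT15* passed the test (limma, adjusted p under 0.05 after Benjamini-Hochberg adjustment over 5498 probe sets), 4 of 9 members, all higher, where 7.26% of all probe sets were called higher and 9.6% lower. The study already lists *HXT2*, *HXT4*, *HXT6*/*HXT7* and *HXT15*/*HXT16* as higher in this comparison. Its methods name other processing and more replicates, and its log2 changes of *HXT2*, *HXT4* and *HXT7* were smaller than those below.

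*HXT2* had log2 intensities of 10.49 and 12.74 in S288c 2μ-*MSS11*, against 5.41 and 7.03 in S288c wild type. The arrays did not overlap, and the smallest gap between the conditions was 3.46. The log2 change was 5.39 (SE 0.672, adjusted p = 0.00115 with limma), a 41.9-fold higher mean. Without wild-type replicate 1 or 2 it was 23.9-fold or 73.5-fold, and without 2μ-*MSS11* replicate 1 or 2 it was 91.5-fold or 19.2-fold. It was the widest response of any member in this strain, from a wild-type level that was also the lowest of *HXT2* in any condition.

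*HXT4* had 13.01 and 13.11 in S288c 2μ-*MSS11*, against 8.73 and 9.77 in S288c wild type. Here the replicates of the overexpressing strain were close, and the smallest gap was 3.23. Its log2 change was 3.81 (SE 0.397, adjusted p = 0.000327 with limma), 14.0-fold, and both overexpressing arrays were above every other array of the series for this gene.

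*HXT7* had 12.71 and 11.79 in S288c 2μ-*MSS11*, against 8.53 and 9.25 in S288c wild type, with a smallest gap of 2.54. Its log2 change was 3.37 (SE 0.521, adjusted p = 0.00366 with limma), 10.3-fold. *HXT15*, one of the rarely expressed members of the family, had 3.25 and 3.76 in S288c 2μ-*MSS11* and 2.24 and 2.27 in S288c wild type. The wild-type signal lay below background, so only a bound could be given, at least 1.4-fold higher with 2μ-*MSS11*. The background level was taken from another set of arrays. The adjusted p of 0.000327 with limma belongs to the measured difference of *HXT15*, not to this bound.

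The low-affinity carriers differed from these. *HXT1* had 13.75 and 13.55 in S288c 2μ-*MSS11*, against 13.81 and 13.84 in S288c wild type, a log2 change of -0.18 (SE 0.131, adjusted p = 0.338 with limma). *HXT3* had 14.51 and 14.54 in S288c 2μ-*MSS11*, against 14.04 and 14.43 in S288c wild type, a log2 change of 0.30 (SE 0.123, adjusted p = 0.116 with limma). Both genes were bright in both conditions.

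*HXT5* was inconsistent between replicates, at 10.39 and 6.26 in S288c 2μ-*MSS11*, against 7.80 and 7.82 in S288c wild type. The overexpressing arrays lay on opposite sides of the wild type, and the log2 change of 0.52 (SE 1.14) gave an adjusted p of 0.773 with limma. Without 2μ-*MSS11* replicate 1 the change was -1.55 (adjusted p = 0.118 with limma), and without replicate 2 it was 2.58 (adjusted p = 0.0384). The summed intensity of the 10 genes of stress and entry into stationary phase also lay on both sides of the wild type. It was 105540 in the replicate with high *HXT5* and 21199 in the other, against 45902 to 52581 in the wild type. *HSP26* (12.96 and 11.23, wild type 10.1 and 10.15) and *TSL1* (12.08 and 10.92, wild type 10.39 and 9.91) were above it in both replicates. Between these replicates 29.3% of all probe sets were more than 1 log2 unit apart. None of those 10 genes passed the test in this comparison, and their part in the *HXT5* values was not tested.

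Of the 9 members, 5 had S288c 2μ-*MSS11* arrays wholly above the wild-type arrays (*HXT2*, *HXT3*, *HXT4*, *HXT7* and *HXT15*), where 21.8% of all probe sets did. The 4 calls held without any 1 of the 4 S288c arrays (without 2μ-*MSS11* replicate 1, 68.8% of all probe sets were called), but the wide replicates mattered in another way. When each condition had its own variance, *HXT2*, *HXT4* and *HXT7* lost the call (adjusted p = 0.509, 0.779 and 0.880 with limma), and when only the 4 S288c arrays were fitted no member passed. Markers of *MATa* cells also moved in this comparison: the median log2 intensity of 7 such genes was 9.56 and 4.73 in S288c 2μ-*MSS11*, against 10.94 and 11.11 in S288c wild type, although the strain is labelled *MATα*. Their summed intensity ranged from 330 to 13253 in S288c 2μ-*MSS11* and from 31333 to 33445 in S288c wild type. 3 of the 7 (*MFA1*, *ASG7* and *BAR1*) passed as lower with 2μ-*MSS11*, and 2 of the 7 were at background on 1 of the overexpressing arrays. The 4 *MATα* markers had medians of 13.18 and 14.22 in S288c 2μ-*MSS11*, against 14.78 and 14.91 in S288c wild type, and *STE3* and *SAG1* passed as lower. The part of both lists in the *HXT* values was not tested.

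**Figure D2:**
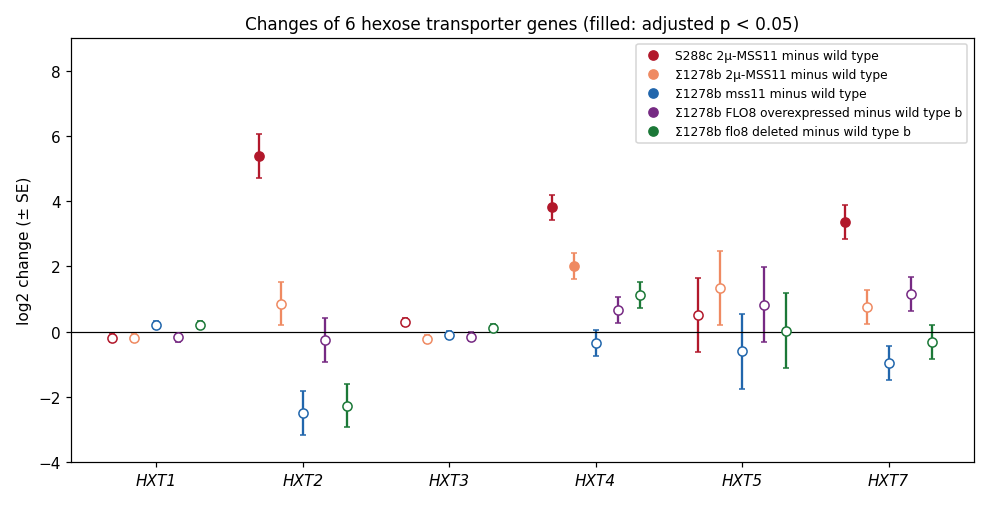
Log2 change with its standard error for the 6 members above background on most arrays, in 5 comparisons of a mutant or overexpressing strain with its wild type. Filled points passed limma at an adjusted p under 0.05: *HXT2*, *HXT4* and *HXT7* in S288c and *HXT4* in Σ1278b.

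In Σ1278b, *HXT4* was the only member that passed with 2μ-*MSS11* against the wild type, 1 of 9 members, where 1.05% of all probe sets were called higher and 4.17% lower (20.2% of the calls were higher, and 40.6% after quantile normalization). *HXT4* had 11.55 and 11.67 in Σ1278b 2μ-*MSS11*, against 9.27 and 9.91 in Σ1278b wild type. The log2 change was 2.02 (SE 0.397, adjusted p = 0.0225 with limma), 4.06-fold. Both 2μ-*MSS11* arrays lay wholly above those of the wild type for *HXT4*, as they did for 24.4% of all probe sets. The call was lost without wild-type replicate 1 (adjusted p = 0.154) and without either 2μ-*MSS11* array (adjusted p = 0.0761 and 0.168 without replicates 1 and 2), and the log2 change then lay between 1.70 and 2.09 with limma.

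*HXT2* had 12.19 and 11.79 in Σ1278b 2μ-*MSS11*, against 11.29 and 10.96 in Σ1278b wild type, and its log2 change was 0.86 (SE 0.672, adjusted p = 0.526 with limma). *HXT7* had 12.74 and 12.90 in Σ1278b 2μ-*MSS11*, against 11.50 and 12.61 in Σ1278b wild type, a log2 change of 0.76 (SE 0.521, adjusted p = 0.459 with limma). For both genes the overexpressing arrays lay above the wild-type arrays, as for 24.4% of all probe sets, by less than the test could call. *HXT5* had 6.33 and 6.44 in Σ1278b 2μ-*MSS11* and 3.96 and 6.12 in Σ1278b wild type, *HXT1* had 13.22 and 12.86 in Σ1278b 2μ-*MSS11* and 13.10 and 13.33 in the wild type, and *HXT3* had 14.17 and 14.21 in Σ1278b 2μ-*MSS11* and 14.28 and 14.55 in the wild type.

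Deletion of *MSS11* gave its largest difference among the members in *HXT2*. *HXT2* had 8.33 and 8.96 in Σ1278b *mss11*, against 11.29 and 10.96 in Σ1278b wild type. Both deletion arrays thus lay below both wild-type arrays, as for 24.5% of all probe sets. The log2 change of -2.48 (SE 0.672) had an adjusted p of 0.811 with limma and did not pass. No member passed in this comparison, where 0.0364% of all probe sets were called higher and 0.0909% lower. At an unadjusted p under 0.05, 1 member (*HXT2*) passed, where 2.76% of all probe sets did. *HXT7* had 11.27 and 10.95 in Σ1278b *mss11* and 11.50 and 12.61 in the wild type, with no overlap between arrays, a log2 change of -0.94 and an adjusted p of 1 with limma. *HXT4* had 9.38 and 9.10 in Σ1278b *mss11* and 9.27 and 9.91 in Σ1278b wild type, which overlapped.

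Setting the highest dose of *MSS11* in Σ1278b against the deletion gave 2 calls among the 9 members, both higher with 2μ-*MSS11*, where 4.62% of all probe sets were called higher and 7.82% lower. *HXT2* was higher by 3.35 (SE 0.672, adjusted p = 0.0157 with limma), 10.2-fold, and *HXT4* by 2.37 (SE 0.397, adjusted p = 0.00876), 5.17-fold. For 40.6% of all probe sets the 2μ-*MSS11* arrays lay wholly above the *mss11* arrays. The smallest gaps between arrays were 2.84 for *HXT2* and 2.16 for *HXT4*. *HXT7* was next, with a log2 change of 1.71 (SE 0.521, adjusted p = 0.0608 with limma) and a smallest gap of 1.47, and *HXT1* had -0.39 (adjusted p = 0.0839). These calls were not firm against the loss of an array. The *HXT2* call was lost without any 1 of the 4 arrays (adjusted p = 0.0715 to 0.0992 with limma), and that of *HXT4* without *mss11* replicate 2 or 2μ-*MSS11* replicate 2 (adjusted p = 0.0941 and 0.0773). Across the 3 doses in Σ1278b, from deletion over wild type to overexpression, *HXT2* averaged 8.64, 11.12 and 11.99, and *HXT4* averaged 9.24, 9.59 and 11.61. The largest step of *HXT2* lay between deletion and wild type and that of *HXT4* between wild type and overexpression, a difference between genes that was not tested.

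The response to 2μ-*MSS11* differed between the strains for 3 of the 9 members, all larger in S288c, where 10.3% of all probe sets had a larger and 5.64% a smaller value in S288c (64.6% of the calls were larger, and 52% after quantile normalization). The difference in log2 change was 4.53 (SE 0.950, adjusted p = 0.0165 with limma) for *HXT2* and 2.60 (SE 0.736, adjusted p = 0.0422) for *HXT7*. Without S288c wild-type replicate 1 or S288c 2μ-*MSS11* replicate 2 the *HXT2* difference was 3.72 or 3.40, and without S288c wild-type replicate 2 or 2μ-*MSS11* replicate 1 it was 5.33 or 5.65. *HXT15* also passed (adjusted p = 0.00536), but its signal was below background in every condition but S288c 2μ-*MSS11*, so no size is given, and the call was lost after quantile normalization (adjusted p = 0.0636). *HXT4*, which passed in each strain, had a difference of 1.79 (SE 0.562, adjusted p = 0.0578 with limma), and *HXT3* had 0.53 (adjusted p = 0.0669). No member passed when each condition had its own variance. Of single arrays, leaving out Σ1278b wild-type replicate 1, Σ1278b 2μ-*MSS11* replicate 2 or S288c wild-type replicate 1 lost the *HXT2* call (adjusted p = 0.0545, 0.0685 and 0.0526 with limma). The *HXT7* call was lost without Σ1278b wild-type replicate 2, either Σ1278b 2μ-*MSS11* array or either S288c wild-type array (adjusted p = 0.0716 to 0.125). Without S288c 2μ-*MSS11* replicate 1, 6 members passed, 5 larger and 1 smaller in S288c, but so did 66.8% of all probe sets.

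The levels in the wild types were compared next. *HXT2* averaged 6.22 ± 1.14 in S288c wild type and 11.12 ± 0.236 in Σ1278b wild type (SD, n = 2 each), a log2 change of -4.90 (SE 0.672, adjusted p = 0.00023 with limma) that was -4.09 or -5.71 without S288c wild-type replicate 1 or 2. *HXT7* averaged 8.89 ± 0.511 in S288c wild type and 12.06 ± 0.791 in Σ1278b wild type, a log2 change of -3.17 (SE 0.521, adjusted p = 0.000656 with limma). With 2μ-*MSS11*, the arrays of the strains overlapped for *HXT2* and nearly met for *HXT7*, with 11.61 ± 1.59 in S288c and 11.99 ± 0.277 in Σ1278b for *HXT2*, and 12.25 ± 0.654 in S288c and 12.82 ± 0.109 in Σ1278b for *HXT7* (SD, n = 2 each). The *HXT2* overlap came from S288c replicate 2 (12.74), while replicate 1 (10.49) lay below both Σ1278b arrays (12.19 and 11.79). For *HXT7* the nearer S288c array was replicate 1 (12.71). The median of the *MATa* markers was 9.56 and 4.73 in these S288c replicates, against 3.27 and 2.86 in Σ1278b 2μ-*MSS11*. That of the *MATα* markers was 13.18 and 14.22, against 12.99 and 12.76. The part of these markers was not tested.

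*HXT1* was higher in S288c wild type, at 13.83 ± 0.0186, against 13.21 ± 0.165 in Σ1278b wild type (log2 change 0.61, SE 0.131, adjusted p = 0.00286 with limma). *HXT4* averaged 9.25 ± 0.736 in S288c wild type and 9.59 ± 0.456 in Σ1278b wild type, and *HXT3* averaged 14.23 ± 0.275 in S288c wild type and 14.42 ± 0.188 in Σ1278b wild type. Neither passed. *HXT5* averaged 7.81 ± 0.018 in S288c wild type and 5.04 ± 1.53 in Σ1278b wild type, a log2 change of 2.77 (SE 1.14, adjusted p = 0.0601 with limma), and without Σ1278b wild-type replicate 2 it passed with 3.85 (adjusted p = 0.0395). In all, 1 of 9 members was higher and 2 were lower in S288c, where 31.8% of all probe sets were called higher and 28.1% lower. Each strain lay in its own set of arrays, so strain and array set cannot be told apart, and all 7 *MATa* markers and 3 of 4 *MATα* markers were higher in S288c wild type.

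In the second Σ1278b set, no member passed in any of the 3 comparisons with limma. For arrays titled *FLO8* overexpressed against wild type b, 0.0546% of all probe sets were called higher and 0% lower, and for those titled *flo8* deleted against wild type b, 0.127% were called higher and 0.273% lower. For *FLO8* overexpressed against *flo8* deleted, 0.4% were called higher and 0.4% lower. At an unadjusted p under 0.05, 0, 2 and 3 members passed in these comparisons, where 1.46%, 5.24% and 7.22% of all probe sets did.

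*HXT2* stood out among the values that did not pass. It had 13.05 and 12.88 on the arrays titled *FLO8* overexpressed, 11.14 and 10.76 on those titled *flo8* deleted and 13.24 and 13.18 in wild type b. The arrays titled *flo8* deleted were thus below the arrays of both other conditions. Against wild type b the log2 change was -2.26 (SE 0.672, adjusted p = 0.393 with limma), where 33.5% of all probe sets lay wholly lower. Against *flo8* deleted, the arrays titled *FLO8* overexpressed were higher by 2.01 (adjusted p = 0.394 with limma), where 33.8% of all probe sets lay wholly higher. When only the arrays compared were fitted, *HXT2* passed in both of these comparisons (adjusted p = 0.0453 and 0.0463 with limma).

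*HXT7* had 13.27 and 13.39 on the arrays titled *FLO8* overexpressed, 11.14 and 12.58 on those titled *flo8* deleted and 11.94 and 12.43 in wild type b. Its log2 change with *FLO8* overexpressed was 1.15 (SE 0.521, adjusted p = 1 with limma) against wild type b and 1.47 (adjusted p = 0.462) against *flo8* deleted. *HXT4* had 11.04 and 10.77 with *FLO8* overexpressed, 10.82 and 11.93 with *flo8* deleted and 10.17 and 10.32 in wild type b. Both altered conditions were above wild type b, with log2 changes of 0.66 (adjusted p = 1 with limma) and 1.13 (adjusted p = 0.667). Of all probe sets, 25.5% and 32.1% lay wholly higher in these comparisons.

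*HXT1* lay between 14.27 and 14.71 and *HXT3* between 14.82 and 15.13 on the 6 arrays of the second set. In both genes the order was *flo8* deleted, wild type b and *FLO8* overexpressed from high to low, with no overlap between neighbouring conditions and differences that did not pass. Of all probe sets, 32.1% lay wholly higher on the arrays titled *flo8* deleted than in wild type b. On those titled *FLO8* overexpressed, 25.8% lay wholly lower than in wild type b. *HXT5* was at background on 5 of the 6 arrays, the exception being 3.55 in *FLO8* overexpressed replicate 2.

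The wild types of the 2 Σ1278b sets differed for most genes, with a median log2 change over all probe sets of 1.21 for wild type b against the wild type. In this comparison 80% of all probe sets were called higher and 2.89% lower (96.5% of the calls were higher, and 24.9% after median centring). Among the members, *HXT1* (1.25, adjusted p = 1.3e-05 with limma), *HXT2* (2.09, adjusted p = 0.0155) and *HXT3* (0.56, adjusted p = 0.00182) were called higher and *HXT5* and *HXT10* lower. Against the shift of the median, *HXT2* was above it, *HXT1* about at it and *HXT3* and *HXT4* (0.66) below it, and centring each array on its median turned the sign of *HXT1*, *HXT3* and *HXT4*. The call of *HXT2* was lost after centring (0.77, adjusted p = 0.448 with limma) and after quantile normalization (0.79, adjusted p = 0.569), and *HXT3* was called lower after centring (-0.75, adjusted p = 0.000954). *HXT5* had 1.92 and 1.92 in wild type b, below background, against 3.96 and 6.12 in Σ1278b wild type. The measured difference passed (adjusted p = 0.0276 with limma). The background level was taken from the first Σ1278b set, and the signal levels of the 2 sets differ. If that level also held in the second set, *HXT5* was as a bound at least 4.05-fold lower in wild type b. This bound was 8.55-fold without Σ1278b wild-type replicate 1 and 1.92-fold without replicate 2. The call of *HXT5* was lost without Σ1278b wild-type replicate 2 or either wild type b array (adjusted p = 0.0819 to 0.185), and that of *HXT2* without the same arrays (adjusted p = 0.0517 to 0.069). The call of *HXT10* compared values below background on both sides. Array set and wild type cannot be told apart here.

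Over the 8 condition means, *HXT2* and *HXT7* followed each other most closely among the 6 members that were above background on most arrays (Pearson r = 0.94), and *HXT1* and *HXT3* next (r = 0.90). *HXT5* ran against *HXT1* (r = -0.67) and *HXT3* (r = -0.79). These correlations describe 8 points in 3 array sets whose signal levels differ, and carry no test. The pairs did not follow position. According to the RefSeq gene order (assembly R64), *HXT4*, *HXT1* and *HXT5* lie close together on chromosome VIII, with 1 annotated gene between *HXT4* and *HXT1* and 0 between *HXT1* and *HXT5*, yet their log2 changes with 2μ-*MSS11* in S288c were 3.81, -0.18 and 0.52. The *HXT5* value came from arrays on opposite sides of the wild type (10.39 and 6.26, against 7.80 and 7.82). *HXT7* and *HXT3* lie near each other on chromosome IV, separated by *HXT6* and 1 further annotated gene, and had 3.37 and 0.30.

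Genes outside the family with the most similar pattern were sought among 5119 probe sets whose condition means spanned at least 1 log2 unit. For *HXT7* the closest was *HXK1*, encoding a hexokinase (r = 0.902 over 8 conditions), followed by *GND2* of the pentose phosphate pathway (r = 0.897) and *HEM13*, encoding a heme biosynthesis enzyme (r = 0.892). *HEM13* was also the closest to *HXT2* (r = 0.952), followed by *YPL278C* (r = 0.947) and *YNR014W* (r = 0.940). For *HXT4* the closest were *YAR064W* (r = 0.908), *ANB1*, an isoform of eIF5A expressed under low oxygen (r = 0.849), and *YHR213W-A* (r = 0.841). *HXT5* was nearest to *BOP2* (r = 0.996), *DIA3* (r = 0.986) and *YMR105W-A* (r = 0.984). Its means were 8.33 and 7.81 in S288c, 4.45 to 6.39 in the first Σ1278b set and 1.92 to 2.75 in the second. The pattern of *HXT5* thus also included the difference between the array sets. For *HXT1* (*AFG1*, *CDC25* and *NEJ1*, each r = 0.992) and *HXT3* (*RKM5*, *PFK27* and *NUP60*, r = 0.977 to 0.982), the shared pattern included the difference between the array sets, and *HXT10* (*GAS4*, *YBR219C* and *PET18*, r = 0.945 to 0.965) was at background. *HXT15*, above background in 1 condition, was nearest to *YFL051C*, *BSC1* and *YNL277W-A* (r = 0.987 to 0.990).

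Of 9 other transporters of the family, 6 had a probe set (*HXT9*, *HXT11*, *HXT13*, *HXT14*, *HXT17* and *GAL2*). None passed in any comparison of *MSS11* or *FLO8* dose. All 9 of their probe sets were at or below background on every array but S288c 2μ-*MSS11* replicate 1, where 7 were. *HXT9* (1 of its 2 probe sets) and *HXT14* were called higher in S288c wild type than in Σ1278b wild type, by 0.67 and 0.27 (adjusted p = 0.0168 and 0.0057 with limma), from signals below background in both strains, where the median of the 9 probe sets was 0.05 and that of all probe sets was 0.02.

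Genes of related lists are given below beside the share of all probe sets called in either direction. This share was 16.9% for 2μ-*MSS11* in S288c, 5.22% for 2μ-*MSS11* in Σ1278b and 12.4% for Σ1278b 2μ-*MSS11* against *mss11*. It was 15.9% for the strain difference in the response to 2μ-*MSS11* and 0.8% for *FLO8* overexpressed against *flo8* deleted. The first list holds the kinases that phosphorylate hexoses after uptake. With 2μ-*MSS11* in S288c, 1 of 4 passed as higher, *HXK1*, by 2.22 (adjusted p = 0.0403 with limma), and the median of the 4 was 1.19, against -0.01 for all probe sets. This median hid wide replicates. *HXK2* had 12.33 and 14.40 in S288c 2μ-*MSS11*, against 12.51 and 12.73 in S288c wild type. *EMI2* had 7.54 and 10.42, against 6.81 and 7.87, and *GLK1* had 13.11 and 12.34, against 12.34 and 12.12. In replicate 1, *HXK2* was thus below the wild-type arrays and *EMI2* between them. *HXK1* had 10.81 and 12.24 in S288c 2μ-*MSS11*, against 8.96 and 9.66 in S288c wild type. In Σ1278b it had 13.32 and 13.48 with 2μ-*MSS11*, against 11.62 and 13.29 in the wild type, and its log2 change was 0.95 (adjusted p = 0.440). All 4 (*HXK1*, *HXK2*, *GLK1* and *EMI2*) were lower in S288c wild type than in Σ1278b wild type, with a median of -2.53, the direction also seen for *HXT2* and *HXT7*. Between these wild types 28.1% of all probe sets were called lower and 31.8% higher.

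Of the genes of the sensing pathway, 2 of 8 passed with 2μ-*MSS11* in S288c, both lower: *GRR1*, a ubiquitin ligase component, by -0.45 (adjusted p = 0.0077 with limma), and *YCK2*, a casein kinase, by -0.37 (adjusted p = 0.0133). The sensor genes *SNF3* and *RGT2* did not pass in either strain with 2μ-*MSS11*. In Σ1278b none of the 8 passed with 2μ-*MSS11* or in *mss11* against the wild type. Between Σ1278b 2μ-*MSS11* and *mss11*, *RGT1*, the repressor of *HXT* genes (named after its values were seen), was higher by 0.60 (adjusted p = 0.0152) and *YCK2* lower. *MTH1*, which acts with Rgt1 in repression, was lower by 1.77 on the arrays titled *FLO8* overexpressed than on those titled *flo8* deleted (adjusted p = 0.0328). *MTH1* had 8.60 and 9.16 with *FLO8* overexpressed, against 10.55 and 10.76 with *flo8* deleted. These did not overlap, as for 27.3% of all probe sets in that direction. In that comparison 1 of the 8 passed.

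Of 14 glucose repression genes, 3 passed with 2μ-*MSS11* in S288c, a share near the 16.9% of all probe sets: *GLC7* (0.35) and *REG1* (0.51), subunits of a protein phosphatase, were higher, and *MIG3*, a relative of the repressor Mig1, was lower (-0.82, adjusted p = 0.0363 with limma). Between Σ1278b 2μ-*MSS11* and *mss11*, *MIG3* (-1.18, adjusted p = 0.0132) and *MIG2* (-0.48, adjusted p = 0.0430) were lower and 1 gene, *NRG2*, was higher. *MIG3* and *MIG2* were also lower with *FLO8* overexpressed than with *flo8* deleted (-1.26 and -0.76, adjusted p = 0.0366 and 0.0336). *MIG3* had 9.11 and 9.40 with *FLO8* overexpressed and 10.57 and 10.47 with *flo8* deleted. None of the 14 passed in Σ1278b 2μ-*MSS11* or *mss11* against the wild type.

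**Figure D3:**
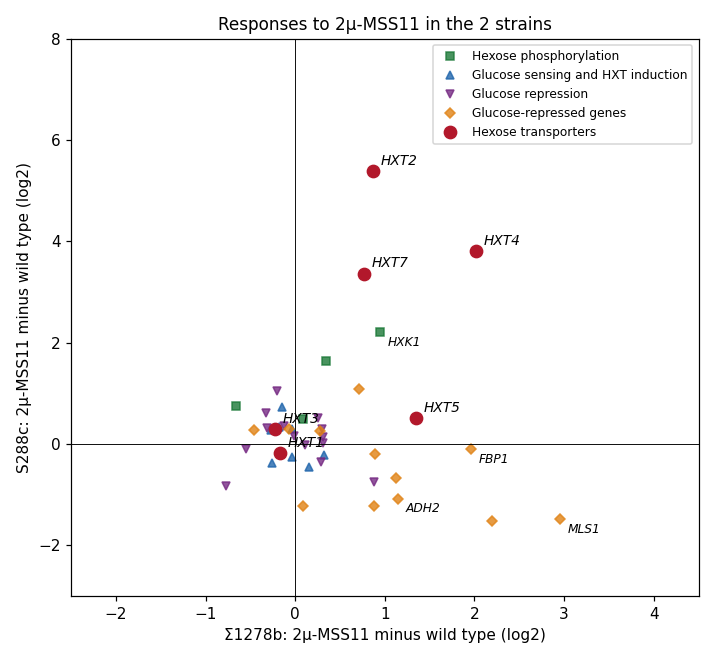
Log2 change with 2μ-*MSS11* in Σ1278b (horizontal) and S288c (vertical) for 6 hexose transporters and for the genes of 4 related lists, 1 point per probe set. *HXT2*, *HXT4* and *HXT7* lie highest, *HXK1* near them, and the glucose-repressed genes *ADH2*, *MLS1* and *FBP1* lie to the right and below 0 on the vertical axis (*FBP1* from signals below background in 3 of the 4 conditions).

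Of 12 genes repressed by glucose, 2 passed with 2μ-*MSS11* in S288c, both lower and no larger a share than the 16.9% of all probe sets: *ADH2*, an alcohol dehydrogenase used on ethanol (-1.08, adjusted p = 0.0059 with limma), and *MLS1*, malate synthase (-1.49, adjusted p = 0.0400). In Σ1278b, 3 passed with 2μ-*MSS11*, all higher: *ADH2* (1.15), *MLS1* (2.95) and *FBP1*, fructose-1,6-bisphosphatase of gluconeogenesis, whose wild-type signal lay below background, so that only a bound of at least 3.05-fold can be given. Between Σ1278b 2μ-*MSS11* and *mss11*, 5 of the 12 passed, all higher (*ADH2*, *MLS1*, *FBP1*, *PCK1* and *ICL1*). There 4.62% of all probe sets were called higher and 7.82% lower, and *FBP1* was below background in *mss11*. None of the 12 passed in *mss11* against the wild type. The difference between strains itself passed for 4 of the 12 genes (*ADH2*, *MLS1*, *FBP1* and *ICL1*), all smaller in S288c, the opposite direction to *HXT2* and *HXT7*. *FBP1* was below background in both S288c conditions. *ADH2* had 6.22 and 5.87 in S288c 2μ-*MSS11*, against 7.22 and 7.02 in S288c wild type, and 7.19 and 7.67 in Σ1278b 2μ-*MSS11*, against 6.40 and 6.17 in Σ1278b wild type. Of the 10 genes of stress and stationary phase, 0 passed with 2μ-*MSS11* in either strain, and their median log2 change was -0.01 in S288c and 0.83 in Σ1278b.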

How the data were processed

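The deposited series table held 1 intensity per probe set and array on a linear scale. Arrays were scanned with GCOS 1.4. The submitters' processing notes name GCRMA, whereas the study's methods name RMA, so the authors' background correction is uncertain. The study describes 3 replicates and exponential growth, whereas the labels give 2 per condition and early stationary phase. Here log2 of the intensity was taken and probe sets with 1 annotated gene of the species were kept (5498 of 10928). limma 3.58.1 in R 4.3.3 fitted a mean per condition over all 16 arrays, moderated by empirical Bayes; p-values were adjusted by Benjamini-Hochberg over all probe sets (threshold 0.05). The fit was tested on simulated data in which every condition had the same spread. The S288c 2μ-*MSS11* replicates lay much further apart than the others, so this test cannot vouch for comparisons that use them. The number of arrays limits the precision. Members and gene lists were chosen with earlier results of these data known. All 9 members are named, other genes come from 8 lists, with log2 changes for at most 4 genes a list, and the 3 closest patterns by Pearson r are given for called members. Of same-numbered replicates, deviations correlated between -0.413 and 0.263 over 28 pairs of conditions, so numbers were not treated as pairs. Alternatives were quantile normalization, median centring, a filter on dim probe sets, no annotation filter, a variance per condition, trended and robust moderation, a replicate block, fewer arrays in the fit, all 4 wild-type arrays, and leaving out each array. No sequence or coordinate is given.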

Additional observations from a re-analysis of the deposited data

Results flagged for a closer look

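For 3 genes the response to 2μ-*MSS11* differed between the strains by the interaction term of the limma fit. The difference, S288c minus Σ1278b, was 4.53 for *HXT2* (adjusted p = 0.0165) and 2.60 for *HXT7* (adjusted p = 0.0422) on the log2 scale. The log2 changes of *HXT2* and *HXT7* were 5.39 and 3.37 in S288c, where both passed, and 0.86 and 0.76 in Σ1278b, where neither passed (adjusted p = 0.526 and 0.459 with limma). For *HXT15* the fitted difference was 1.18 (adjusted p = 0.00536), which is no measured size because the gene was below background in every condition but S288c 2μ-*MSS11*. After quantile normalization it was 0.55 and did not pass (adjusted p = 0.0636).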

How the results depend on the processing

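The 2 arrays per condition limit every comparison, and the S288c 2μ-*MSS11* arrays differ most. With a variance per condition, the number of members called was 1 for 2μ-*MSS11* in S288c (4 in the fit reported), 0 for 2μ-*MSS11* in Σ1278b (1), 5 for Σ1278b 2μ-*MSS11* against *mss11* (2), 0 for the strain difference in response (3), 2 for *flo8* deleted against wild type b (0) and 4 for *FLO8* overexpressed against *flo8* deleted (0). The shares of all probe sets called were then 0.4%, 8.73%, 49.9%, 0.127%, 15.8% and 17.7%. With only the arrays compared, these numbers were 0, 0, 4, 0, 1 and 1, beside 0%, 0%, 40.4%, 0%, 0.982% and 1.8% of all probe sets. Against all 4 Σ1278b wild-type arrays, 4 members passed with 2μ-*MSS11* and 4 with *mss11*, below the 66.7% and 70.9% of all probe sets that passed, and the log2 change of *HXT2* with 2μ-*MSS11* turned to -0.18. With no annotation filter, 0 passed with 2μ-*MSS11* in Σ1278b. With median centring, 6 members passed between the strains' wild types (3). Between the Σ1278b wild types, 0 passed after quantile normalization (5), and the log2 changes turned to -0.63 (quantile) and -0.66 (centring) for *HXT4*, -0.33 and -0.75 for *HXT3*, and -0.065 (centring) for *HXT1*. Leaving out 1 array gave 4 to 5 members in S288c, 0 to 1 with 2μ-*MSS11* in Σ1278b, 0 to 2 for 2μ-*MSS11* against *mss11*, 1 to 6 for the strain difference, 3 to 4 between strains and 2 to 4 between the Σ1278b wild types. The *HXT5* change in S288c then ranged from -1.55 to 2.58, and that of *HXT2* from 4.26 to 6.52. With the replicate number as a block, the number of members called was the same in all 10 comparisons (4 with 2μ-*MSS11* in S288c). Of 28 pairs of conditions, 11 had a correlation of same-numbered deviations over 0.1. Beyond what a setting's own construction shows, the cause of these changes was not tested.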
